A study of Mus musculus with 12 samples.

Results

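The ovaries of 3 DHT-treated mice and 3 placebo-treated mice were compared across all genes of a mouse transcriptome array. These 6 arrays were chosen by their labels, which name the tissue and DHT-treated or control (here placebo-treated) mice. They are 6 of the 12 arrays of the series. The other 6 measured gonadal fat pads of the same design. Female C57BL/6J mice received a silicone capsule at 25 days of age. It held 5 mg of dihydrotestosterone (DHT), an androgen that aromatase cannot turn into an estrogen, or was empty, and the tissues were taken about 60 days later. All groups carried a capsule, and the DHT-treated mice are a model of polycystic ovary syndrome by androgen excess alone. The labels call the 3 arrays of a group biological replicates. They do not say whether an array held 1 mouse or a pool, and they do not give the stage of the estrous cycle at which placebo-treated mice were taken.

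The cycling mouse ovary holds follicles, in which granulosa and theca cells surround an oocyte, and corpora lutea, which form from ruptured follicles and make progesterone. Between them lies a stroma of fibroblast-like, steroid-making interstitial, vascular and immune cells. Androgens act through the androgen receptor, a transcription factor that binds DNA as a dimer, and the surge of luteinizing hormone that starts ovulation and luteinization acts through cAMP. Whole ovaries were measured, so that a lower value can come from fewer cells of a type or from less RNA per cell, and these cannot be told apart here.

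The array summarised each transcript cluster (a set of probes for 1 locus) as 1 value on the log2 scale, so that a difference of 1 is a 2-fold change. Of 65929 clusters, 30638 carried 1 gene symbol, for 30176 genes, and 19119 genes exceeded the array median on 3 or more of the 6 arrays and were tested with limma. Array medians ran from 4.35 to 4.43. Differences between replicates had a standard deviation of 0.203 to 0.296 across clusters. Defining transcripts of the ovary were well above the array medians in all 6 arrays. Inha, a subunit of inhibin from granulosa cells, ran from 11.38 to 11.79, and Zp3, of the egg coat, from 7.74 to 8.55. Transcripts of the oviduct differed between arrays of the same group. Ovgp1, the glycoprotein that oviduct epithelium secretes, stood at 5.31, 10.27 and 11.32 in DHT-treated and at 5.55, 11.55 and 5.14 in placebo-treated mice. The epithelial transcription factor Pax8 stood at 5.36, 6.28 and 7.37 in DHT-treated and at 5.44, 7.30 and 5.32 in placebo-treated mice. Neither separated the groups (exact permutation test, two-sided, p = 0.9 for Ovgp1 and 0.7 for Pax8). DHT replicate 3 and placebo replicate 2 had the highest values of both, and DHT replicate 2 came next. Among the tested genes, 135 were at least 1 unit higher in both DHT replicate 3 and placebo replicate 2 than in each of DHT replicate 1, placebo replicate 1 and placebo replicate 3.

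A gene was called where its adjusted p from limma was at most 0.10. In the ovaries 241 genes (1.26% of those tested) were called, of which 104 (0.544%) rose and 137 (0.717%) fell in DHT-treated mice. Of these, 62 (0.324%) changed at least 2-fold, 22 upward (0.115%) and 40 downward (0.209%). The median change of all tested genes was -0.004. In all 241 the 3 DHT-treated arrays lay on 1 side of the 3 placebo-treated arrays, which was also the case in 20% of the tested genes. Centring each array on its median gave 91 higher and 207 lower calls. The number called depended on single arrays. It was 67 without DHT replicate 1, 55 without DHT replicate 2, 25 without DHT replicate 3, 197 without placebo replicate 1, 58 without placebo replicate 2 and 62 without placebo replicate 3. Since the groups of the 241 genes do not overlap, leaving out arrays could not turn their direction. Without both arrays richest in oviduct transcripts, DHT replicate 3 and placebo replicate 2, 5 genes were called. The change of the 59 called genes named below then moved by a median of 0.05 and by at most 0.61, for Akr1c18. The genes called without these arrays were Vcam1, Rtl4, Oxtr, Mgst2 and Klk1b21, a tissue kallikrein that was not called over 6 arrays (adjusted p = 0.286). In each of the 6 fits that left out 1 array, 18 genes were called. Those that rose were C7, Vcam1, E030003E18Rik, Kit, Rtl4, Lifr, Gm10639, Ogdhl and Icosl, and those that fell were Tmem178, Wnt10b, Mrap, Mgst2, Cdkn1b, Tmem71, Tst, Lix1 and Epb41l1.

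**Figure D1:**
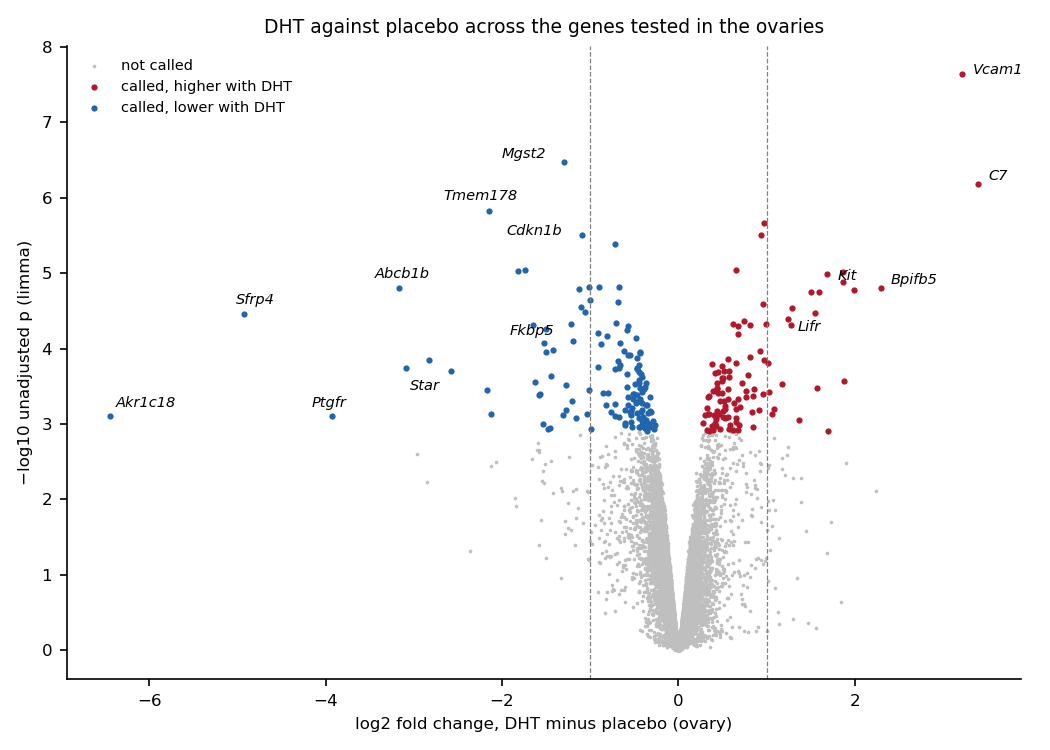
Each point is 1 of the 19119 genes tested in the ovaries, with its log2 fold change (DHT minus placebo, 3 arrays each) on the horizontal axis and the −log10 of its unadjusted p from limma on the vertical axis. Coloured points are the 104 higher and 137 lower genes with an adjusted p of at most 0.10, and dashed lines mark a 2-fold change. Vcam1 and C7 stand furthest up on the right, and Akr1c18 and Sfrp4 changed most on the left.

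The largest rises in DHT-treated mice were those of C7, Vcam1 and Bpifb5. C7, a late component of the membrane attack complex of complement, stood at 9.66, 9.34 and 9.49 in DHT-treated and at 6.51, 5.92 and 5.89 in placebo-treated mice. It rose 10.5-fold (log2 fold change 3.40, standard error 0.18, adjusted p = 0.00417). Every DHT-treated array exceeded every placebo-treated array, and without both oviduct-rich arrays its change was 3.31 (adjusted p = 0.135). Vcam1, an adhesion molecule that leukocytes bind through integrins, stood at 9.57, 9.84 and 9.48 against 6.38, 6.37 and 6.48, a 9.32-fold rise (3.22, standard error 0.10, adjusted p = 0.000442). Within each group the 3 values of Vcam1 lay close together. Bpifb5, of a family of lipid-binding secreted proteins, stood at 9.08, 8.80 and 8.87 against 6.42, 6.37 and 7.09 (log2 fold change 2.29, adjusted p = 0.0147). Fabp3, which carries fatty acids in the cytosol, stood at 10.23, 10.06 and 10.12 against 7.96, 8.24 and 8.61 (1.87, adjusted p = 0.0147). The gene has more than 1 cluster, and with the mean of its clusters the rise was 0.93, or 1.91-fold (adjusted p = 0.0224). The array also has a cluster for its pseudogene Fabp3-ps1, which was called as well, and probes may not tell these copies apart. Kit, the receptor of stem cell factor on oocytes, interstitial cells and mast cells, stood at 9.02, 8.88 and 8.87 against 6.92, 7.38 and 7.41, a 3.21-fold rise (1.68, standard error 0.14, adjusted p = 0.0147). Its 3 DHT-treated values lay close together. Col6a5, a chain of collagen VI, stood at 7.67, 7.29 and 7.69 against 6.12, 6.00 and 5.74, a 3.02-fold rise (1.59, standard error 0.14, adjusted p = 0.0147).

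Further genes rose with no overlap of the groups. Itih2, a heavy chain of the plasma inhibitor that binds hyaluronan, rose by 1.87 (adjusted p = 0.054), and the melanosome transporter Oca2 by 1.69 (adjusted p = 0.0983). Svs5, known as a secretory protein of the seminal vesicle, stood at 6.72, 5.83 and 6.20 against 4.58, 4.54 and 4.92 (1.57, adjusted p = 0.0587). Rtl4, a gene derived from a retrotransposon, was below the array median in all placebo-treated arrays and rose at least 1.85-fold, where the bound takes those medians in place of the low values and does not cover sampling error. Lifr, the receptor of leukemia inhibitory factor, stood at 9.37, 9.02 and 8.94 against 7.75, 7.85 and 8.0 (1.24, adjusted p = 0.0231). Eya1, a cofactor of transcription in developing organs, rose by 1.27 (adjusted p = 0.0231), and Mro by 1.36 (adjusted p = 0.0856). Among the named genes that rose, C7, Vcam1, Kit, Lifr and Rtl4 were called in all 6 fits that left out 1 array, while Mro was called in 0 and Oca2 and Itih2 in 1 each.

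**Figure D2:**
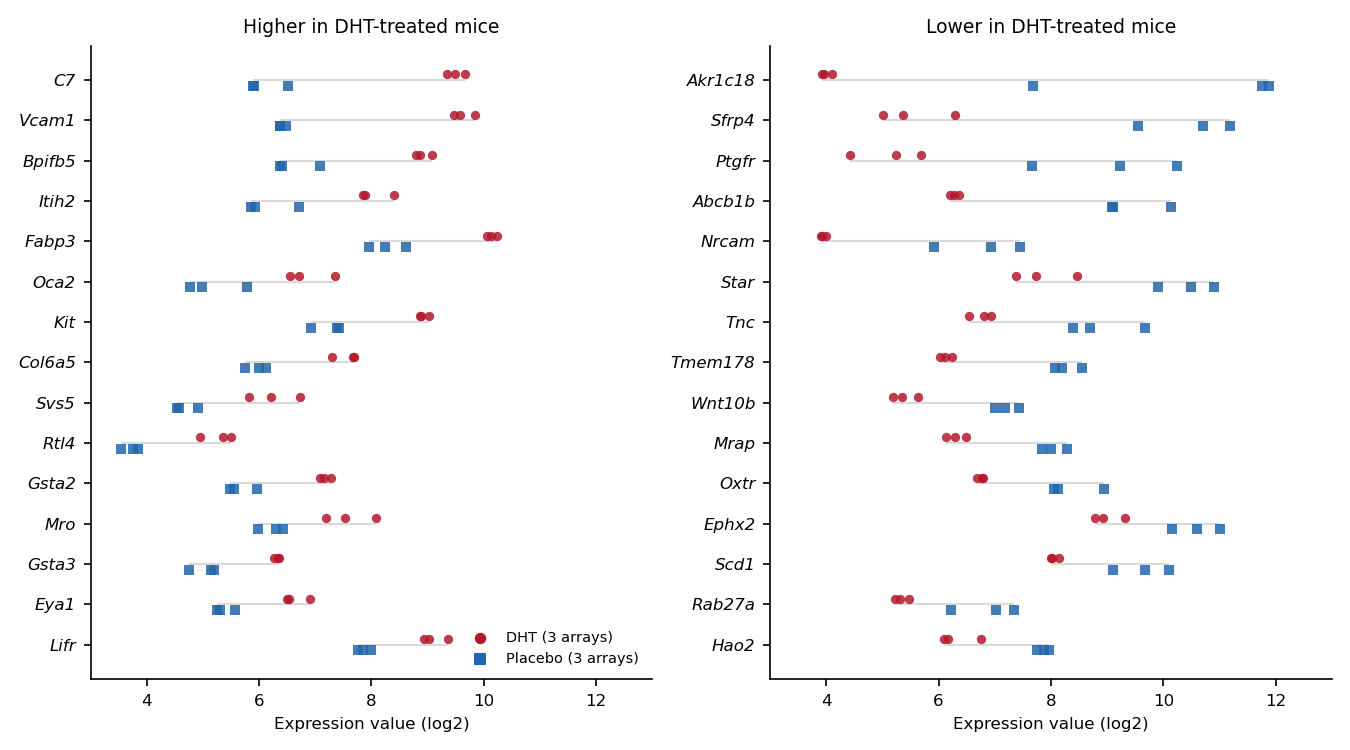
Log2 values of the 15 higher and 15 lower genes with the largest change, predicted and unnamed genes left out. Red circles are the 3 DHT-treated and blue squares the 3 placebo-treated arrays, and the groups of every gene shown do not overlap.

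The largest falls were those of Akr1c18, Sfrp4, Ptgfr and Abcb1b, and genes of the corpus luteum and of steroid synthesis are given first. Akr1c18, which turns progesterone into a less active steroid, stood at 3.92, 3.96 and 4.10 in DHT-treated and at 7.68, 11.76 and 11.87 in placebo-treated mice. All 3 DHT-treated arrays lay below their medians. Against those medians the fall was at least 65.2-fold, a bound that does not cover sampling error. The log2 fold change of the measured values was -6.44 (standard error 1.09, adjusted p = 0.0794). Placebo replicate 1 stood well below the other placebo-treated arrays. Sfrp4, a secreted binder of Wnt proteins, stood at 5.01, 6.30 and 5.37 against 9.54, 10.71 and 11.19, a 30.3-fold fall (log2 fold change -4.92, standard error 0.49, adjusted p = 0.0215). Ptgfr, the receptor of prostaglandin F2 alpha that drives regression of corpora lutea, stood at 4.43, 5.23 and 5.69 against 7.65, 9.23 and 10.25 (-3.93, adjusted p = 0.0794). Star, which brings cholesterol to the inner membrane of mitochondria, stood at 7.37, 8.47 and 7.74 against 9.91, 10.49 and 10.90 (-2.57, adjusted p = 0.0472). In all 4 the lowest placebo-treated array was replicate 1. Cyp11a1, which makes pregnenolone from cholesterol, stood at 10.32, 10.87 and 10.53 against 11.80, 12.09 and 12.33 (-1.50, adjusted p = 0.0371). With the mean of its clusters it fell 1.9-fold in place of 2.83-fold (adjusted p = 0.0224). Timp1, an inhibitor of matrix proteases, fell by 1.01 on the log2 scale (adjusted p = 0.0595).

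Of 20 genes listed as corpus luteum markers, 16 were tested, 0 rose, 6 fell and 10 did not pass, and the median change was -1.23. Those that fell make up 37.5% of the tested members, against 0.717% of all tested genes. Their mean level ran from 7.38 to 7.72 in DHT-treated and from 8.71 to 9.85 in placebo-treated mice, with no overlap. Without both oviduct-rich arrays the median was -1.22. Some of these genes had been picked from these samples in the study, so that their direction is not independent evidence. Akr1c18 and Ptgfr were called in 1 of the 6 leave-one-out fits each, and both had an adjusted p of 0.11 without the filter on low values.

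The promoters of 4 of the genes with large changes are shown to give the sequence next to the values, Akr1c18 and Cyp11a1 for those that fell and C7 and Bpifb5 for those that rose. All 4 windows hold a motif, while a window at another start of Cyp11a1 (chr9:57997774-57998073), that of Fabp3 and both of Kit hold neither motif and are not shown. Each is 300 bases, 250 before and 50 after the start of a RefSeq transcript (GRCm38.p6), 5′ to 3′ on the strand of the gene. Capitals mark AGGTCA, a half-site of nuclear receptors, or AGAACA, a half-site of the androgen and glucocorticoid receptors, searched on both strands.
Akr1c18, chr13:4150597-4150896, minus strand: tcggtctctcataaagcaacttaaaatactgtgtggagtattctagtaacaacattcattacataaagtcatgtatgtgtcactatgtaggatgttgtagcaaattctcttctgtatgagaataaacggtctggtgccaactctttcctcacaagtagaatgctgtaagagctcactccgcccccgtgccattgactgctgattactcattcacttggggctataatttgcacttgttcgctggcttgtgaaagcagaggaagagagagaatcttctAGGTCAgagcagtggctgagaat
Cyp11a1, chr9:58014702-58015001, plus strand: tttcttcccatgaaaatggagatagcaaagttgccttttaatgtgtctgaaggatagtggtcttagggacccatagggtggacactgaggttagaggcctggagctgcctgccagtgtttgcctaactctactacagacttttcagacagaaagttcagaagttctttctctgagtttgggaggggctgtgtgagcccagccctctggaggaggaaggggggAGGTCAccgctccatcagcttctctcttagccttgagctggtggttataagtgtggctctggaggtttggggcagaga
C7, chr15:5063724-5064023, minus strand: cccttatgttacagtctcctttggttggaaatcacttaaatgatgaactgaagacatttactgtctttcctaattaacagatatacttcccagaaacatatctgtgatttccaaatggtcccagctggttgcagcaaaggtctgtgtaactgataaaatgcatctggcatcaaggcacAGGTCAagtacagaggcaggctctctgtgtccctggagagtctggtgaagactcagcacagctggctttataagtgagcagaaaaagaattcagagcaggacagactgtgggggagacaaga
Bpifb5, chr2:154223492-154223791, plus strand: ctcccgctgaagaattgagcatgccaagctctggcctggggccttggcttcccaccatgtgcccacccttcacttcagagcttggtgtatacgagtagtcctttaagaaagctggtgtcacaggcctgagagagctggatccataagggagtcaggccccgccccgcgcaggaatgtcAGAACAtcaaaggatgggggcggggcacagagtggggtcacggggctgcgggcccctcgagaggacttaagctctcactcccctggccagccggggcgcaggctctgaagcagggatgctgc
AGGTCA begins 72 bases before the start of C7, 28 before that of Cyp11a1 and 27 after that of Akr1c18, and AGAACA begins 72 bases before that of Bpifb5. A window of this kind was found for 175 of the 241 called genes. AGGTCA occurred in 11.9% of the 101 windows of genes that rose, in 14.9% of the 141 windows of genes that fell and in 13.2% of the windows of all tested genes. AGAACA occurred in 19.8%, 9.22% and 13.3% of these, and in 19% of all promoter windows. These matches are descriptions of letters in a window and not binding sites.

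Other genes with large falls have roles outside steroid synthesis. Abcb1b, a multidrug efflux pump of rodents, stood at 6.20, 6.27 and 6.37 against 10.13, 9.11 and 9.09, an 8.96-fold fall (log2 fold change -3.16, standard error 0.28, adjusted p = 0.0147). Tmem178, a membrane protein, stood at 6.11, 6.24 and 6.03 against 8.55, 8.08 and 8.19 (-2.15, standard error 0.13, adjusted p = 0.00705). Its call held in all 6 fits that left out 1 array. Nrcam, a neural adhesion molecule, lay below the array median in all DHT-treated arrays and fell at least 5.12-fold, a bound that does not cover sampling error. Rab27a, which tethers secretory vesicles, fell by 1.53 (adjusted p = 0.0903) and the peroxisomal oxidase Hao2 by 1.52 (adjusted p = 0.0315) on the log2 scale. Mgst2, a membrane glutathione S-transferase, stood at 4.80, 4.89 and 4.72 against 6.11, 6.06 and 6.13 (-1.30, standard error 0.06, adjusted p = 0.00319). Among the genes that fell, its adjusted p was the lowest. Cdkn1b, the inhibitor p27 of cyclin-dependent kinases, stood at 7.48, 7.58 and 7.44 against 8.70, 8.49 and 8.61 (-1.10, standard error 0.07, adjusted p = 0.00845).

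Among 40 lists, 1012 tested genes included 25 that rose and 23 that fell, which is 4.74% of them against 1.26% of all tested genes, and 15 lists had no called member. The lists of ovarian cell types other than the corpus luteum held from 0 to 2 called genes each. The lists were made with earlier results of these data known, and their medians are given beside a median of -0.004 over all tested genes. Of 24 genes of granulosa and cumulus cells, 0 was called (median 0.04), and Inha had a change of -0.07 (adjusted p = 0.887). Of 10 theca genes 0 was called (median 0.20), and Aldh1a1, a retinal dehydrogenase, had a change of 0.41 (adjusted p = 0.176) and Hsd3b1 one of -0.45 (adjusted p = 0.167). Of 18 oocyte genes 0 was called, 17 had a higher mean with DHT, and Zp2, of the egg coat, had a change of 0.13 (adjusted p = 0.913). Their mean level was 7.01 in DHT replicate 1 and from 6.40 to 6.66 in the other arrays. Of 23 stromal genes, C7 and Ogn rose and 0 fell (median -0.02). Ogn, the matrix proteoglycan osteoglycin, stood at 10.43, 10.42 and 10.36 against 10.03, 9.83 and 9.85, a small rise of 0.50 (adjusted p = 0.0518). The mean level of the stromal list ran from 8.02 to 8.18 with DHT and from 7.85 to 8.21 with placebo, so that the groups overlapped. Among 19 endothelial genes Vwf, the clotting glycoprotein of vessel walls, rose by 0.49 (adjusted p = 0.054), the median was -0.01, and Cdh5, a junction protein of endothelium, had a change of -0.03 (adjusted p = 0.97). Of 15 genes of smooth muscle and pericytes 0 was called and 14 had a lower mean with DHT (median -0.29), with Myh11 at -0.29 (adjusted p = 0.734) and Acta2 at -0.10 (adjusted p = 0.741). Of 15 genes of mesothelium and ovarian surface 0 was called (median 0.03), with Wt1 at -0.05 and Aldh1a2 at -0.26. Lists of 2 red blood cell and 7 skeletal muscle genes had medians of 0.02 and -0.02 with 0 calls.

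**Figure D3:**
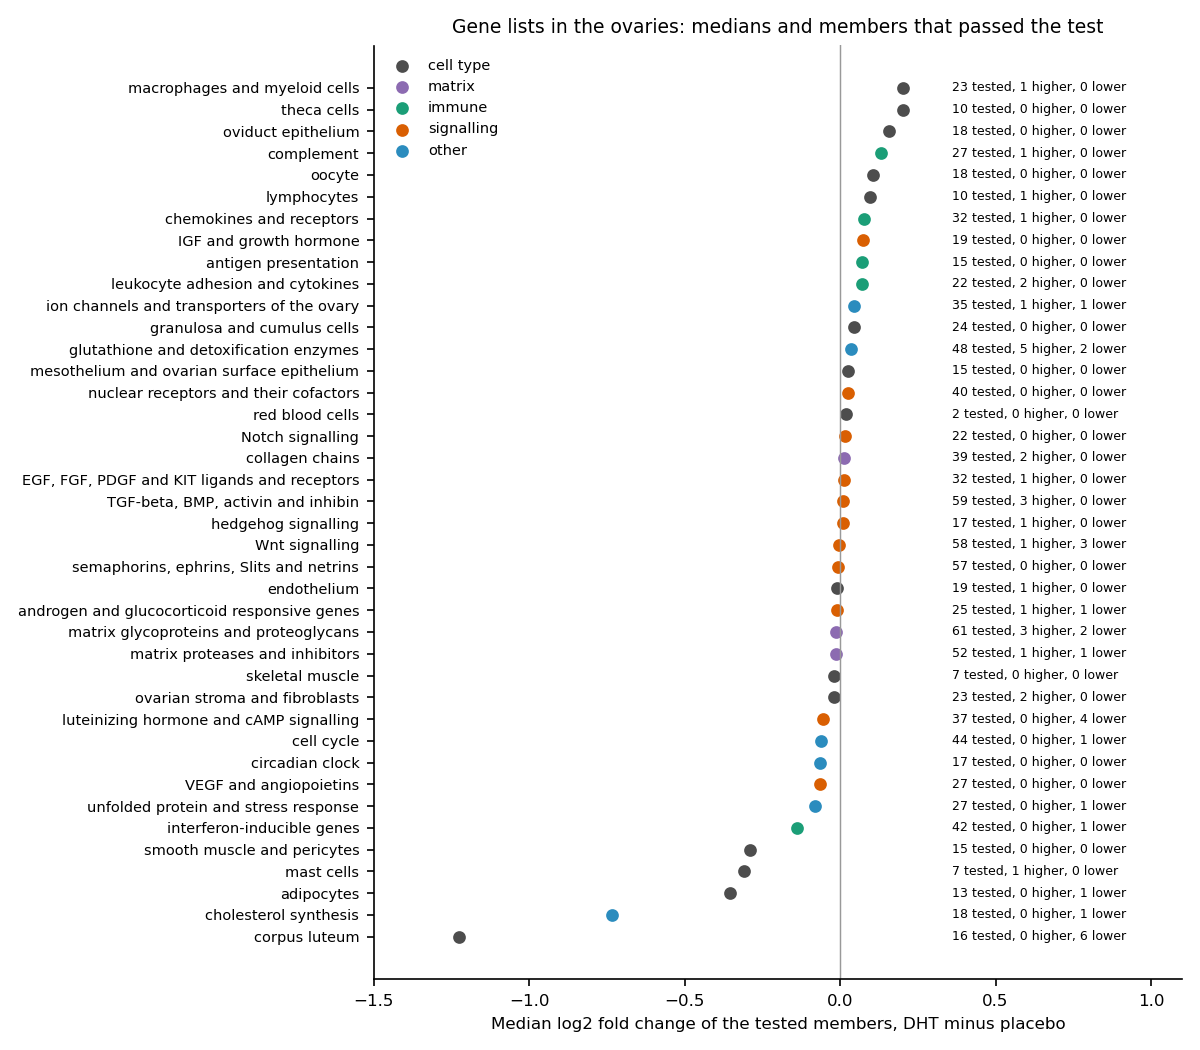
Median log2 fold change (DHT minus placebo) of the tested members of each of 40 gene lists in the ovaries, coloured by kind of list, with the numbers of members tested, called higher and called lower at an adjusted p of at most 0.10 on the right. The corpus luteum list (-1.23) and the cholesterol synthesis list (-0.73) lie lowest, and most others lie near 0.

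Of 13 adipocyte genes, Lipe, a lipase that hormones activate, fell by 0.35 (adjusted p = 0.0903) and 12 did not pass (median -0.35). Their mean level ran from 6.067 to 6.499 in DHT-treated and from 6.503 to 7.013 in placebo-treated mice, so that the groups narrowly did not overlap. The defining adipocyte hormone Adipoq stood at 5.69, 5.06 and 5.18 against 6.69, 6.02 and 5.64, and its groups overlapped. The adipocyte gene Plin1 stood at 5.74, 5.62 and 5.70 against 6.61, 5.95 and 6.05, with no overlap (adjusted p = 0.261). With the mean of the adipocyte genes Adipoq, Retn, Plin1 and Cidec as a covariate, 21 genes were called, 4 higher and 17 lower, 16 of them among the 241. C7, Vcam1, Col6a5, Star, Cyp11a1, Sfrp4, Ptgfr, Wnt10b, Tmem178 and Mgst2 were among these. The other 49 called genes named here did not pass with this covariate, among them Abcb1b and Akr1c18 (each adjusted p = 0.167), Kit (0.168) and Bpifb5, Fabp3 and Lifr (each 0.186). The change grew for Akr1c18 (-9.03 in place of -6.44) and Lifr (1.31 in place of 1.24). It shrank for Abcb1b (-2.58 in place of -3.16), Kit (1.46 in place of 1.68), Bpifb5 (2.18 in place of 2.29), Fabp3 (1.63 in place of 1.87) and Oca2 (0.91 in place of 1.69). The mean of the 13 listed genes separated the groups, but the covariate was the mean of 4 genes, whose level per array is not given here. Of these, Plin1 separated the groups and Adipoq did not. The fit therefore cannot be relied on to tell adipocyte content from treatment.

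Called genes of the extracellular matrix made up 5.13% of the collagens, 8.2% of the glycoproteins and proteoglycans and 3.85% of the proteases and inhibitors tested, against 1.26% of all tested genes. Of 39 collagen chains, Col6a5 and Col4a3 rose, 0 fell and 37 did not pass (median 0.01). Col4a3, a chain of basement membrane collagen IV, stood at 6.21, 6.02 and 6.08 against 5.69, 5.67 and 5.75, a rise of 0.40 (adjusted p = 0.0794). Its change was smaller than that of Col6a5. Of 61 matrix glycoproteins and proteoglycans, Ogn, Ltbp2 and Ecm2 rose and Tnc and Thbs2 fell (median -0.01). Tnc, the glycoprotein tenascin C of remodelling matrix, stood at 6.93, 6.80 and 6.54 against 8.70, 8.39 and 9.67, a 4.49-fold fall (adjusted p = 0.0595). Ltbp2, which binds microfibrils, rose by 0.42 (adjusted p = 0.0472) and Ecm2 by 0.56 (adjusted p = 0.0646). Of 52 matrix proteases and inhibitors, Reck, a membrane inhibitor of metalloproteinases, rose by 0.53 (adjusted p = 0.0725) and Timp1 fell. The mean levels of all 3 matrix lists overlapped between the groups.

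Immune lists had from 0 to 2 called genes each. Called genes made up 3.7% of the complement, 9.09% of the adhesion and cytokine and 3.12% of the chemokine list. They made up 2.38% of the interferon-inducible, 4.35% of the macrophage, 10% of the lymphocyte and 14.3% of the mast cell list. The share of all tested genes was 1.26%, and most of these list shares rest on 1 gene. Of 27 complement genes C7 rose and 26 did not pass (median 0.13). The mean level of the complement list ran from 6.55 to 6.83 with DHT and from 6.43 to 6.54 with placebo. Of 22 genes of leukocyte adhesion and cytokines, Vcam1 rose with Il33, an alarmin cytokine of stromal and endothelial cells, which stood at 5.89, 6.20 and 6.30 against 5.41, 5.45 and 5.25 (0.77, adjusted p = 0.0629). The mean levels of this list did not overlap either, at 5.69 to 5.93 against 5.52 to 5.61 (median change 0.07). Each of these list means includes a gene with a large rise, C7 (3.40) or Vcam1 (3.22). Whether the other members separate the groups was not tested. Of 32 chemokines and receptors, Cxcl1, which attracts neutrophils, rose by 0.84 (adjusted p = 0.0778). Of 42 interferon-inducible genes Bst2, a tether of enveloped viruses, fell by 0.48 (adjusted p = 0.0286), and 31 had a lower mean with DHT (median -0.14). Of 15 antigen presentation genes 0 was called (median 0.07). Among 23 macrophage and myeloid genes, Mertk, a receptor for engulfing dead cells, stood at 8.09, 8.20 and 7.99 against 7.28, 6.98 and 7.44 (0.86, adjusted p = 0.0587), and 22 did not pass (median 0.20). Its ligand Gas6, named after its values were seen, was also called (0.76). The defining macrophage markers Adgre1 and Csf1r had changes of -0.08 (adjusted p = 0.846) and 0.14 (adjusted p = 0.66). Among 10 lymphocyte genes Cd4 rose by 0.47 (adjusted p = 0.0963). Cd3e and Cd79a, of T and B cells, had adjusted p-values of 0.4 and 0.748. The mean of the lymphocyte list ran from 4.93 to 5.16 with DHT and from 4.82 to 4.87 with placebo. Kit was the called member of 7 tested mast cell genes, whose median was -0.31, and the mast cell protease Cpa3 stood at 4.43, 4.15 and 4.60 against 5.45, 5.43 and 4.90.

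Among signalling families, most called members of the Wnt and luteinizing hormone lists fell. Called genes made up 6.9% and 10.8% of these lists, against 1.26% of all tested genes. Of 58 Wnt genes, Wnt10b, Sfrp4 and Wnt4 fell and Lgr6 rose (median -0.004). The ligand Wnt10b stood at 5.19, 5.35 and 5.63 against 7.01, 7.18 and 7.43, a 3.52-fold fall (log2 fold change -1.82, standard error 0.15, adjusted p = 0.0147). Wnt4, a ligand needed for ovarian development, stood at 7.44, 7.54 and 7.57 against 8.57, 8.20 and 8.44 (-0.88, adjusted p = 0.0315). The R-spondin receptor Lgr6 rose by 0.62 (adjusted p = 0.0966). Both ligands and a secreted inhibitor of the pathway were thus lower with DHT. Of 37 genes of luteinizing hormone and cAMP signalling, 0 rose, and Mrap, Oxtr, Rgs16 and Prkaca fell (median -0.06). Mrap, which brings the adrenocorticotropin receptor to the membrane, stood at 6.49, 6.29 and 6.13 against 7.84, 7.99 and 8.28 (-1.74, adjusted p = 0.0147). The oxytocin receptor Oxtr stood at 6.77, 6.79 and 6.68 against 8.06, 8.94 and 8.12 (-1.63, adjusted p = 0.055). Rgs16, which shortens G protein signals, fell by 0.72 (adjusted p = 0.046) and Prkaca, the catalytic subunit of protein kinase A, by 0.38 (adjusted p = 0.0856). The mean level of this list, with these 4 genes included, ran from 6.70 to 6.75 with DHT and from 6.79 to 6.85 with placebo. Of its members 23 had a lower and 14 a higher mean with DHT. Whether the list without the 4 genes was lower was not tested.

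Of 59 genes of TGF-beta, BMP, activin and inhibin signalling, 3 rose and 0 fell (5.08% called, median 0.01). Chrdl1, a secreted BMP antagonist, stood at 7.47, 7.06 and 7.16 against 6.26, 6.30 and 6.37 (0.92, adjusted p = 0.0371). Tgfbr3, the co-receptor betaglycan, rose by 0.51 (adjusted p = 0.0472), and Ltbp2 was the third. Of 17 hedgehog genes the co-receptor Boc stood at 7.98, 8.05 and 8.05 against 7.48, 7.44 and 7.31 (0.61, adjusted p = 0.0231). Of 25 genes known to respond to androgen or glucocorticoid, 1 rose, 1 fell and 23 did not pass (8% called, median -0.01). Zbtb16, a zinc finger repressor, rose by 0.57 (adjusted p = 0.0964), while Fkbp5, a co-chaperone of steroid receptors, stood at 7.83, 7.53 and 7.49 against 8.65, 8.74 and 9.06 and fell by 1.20 (standard error 0.14, adjusted p = 0.031). These familiar responders went in opposite directions. Kit was the called gene among 32 ligands and receptors of the EGF, FGF, PDGF and KIT families (median 0.01). No gene was called among 22 of Notch, 19 of IGF and growth hormone, 27 of VEGF and angiopoietin, 57 of semaphorin, ephrin, Slit and netrin, and 40 of nuclear receptors and cofactors, with medians of 0.02, 0.07, -0.07, -0.01 and 0.02.

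Detoxification enzymes changed in both directions, and 14.6% of them were called against 1.26% of all tested genes. Of 48 genes of glutathione and detoxification, Gsta2, Gsta3, Ptgr1, Aldh1a7 and Sult1a1 rose and Mgst2 and Ephx2 fell (median 0.04). Gsta2, a glutathione S-transferase, stood at 7.09, 7.28 and 7.15 against 5.56, 5.48 and 5.96 (1.50, adjusted p = 0.0147), and Gsta3 had a change of 1.28 (adjusted p = 0.0197). Members of this family are alike in sequence, so that probes may pick up more than 1 of them. Ephx2, which opens epoxides of fatty acids, stood at 9.32, 8.92 and 8.78 against 10.15, 10.60 and 11.01 (-1.58, adjusted p = 0.061). Of 35 ion channels and transporters, Slc7a8, a carrier of large neutral amino acids, stood at 10.04, 10.20 and 10.20 against 9.29, 9.42 and 9.49 (0.75, adjusted p = 0.0231), and Abcb1b fell (median 0.05). Scd1, the stearoyl-CoA desaturase, fell by 1.57 (adjusted p = 0.0609). Of 18 genes of cholesterol synthesis all had a lower mean with DHT and Mvk, the mevalonate kinase, was called (median -0.73). Their mean level ran from 6.65 to 6.90 with DHT and stood at 7.15, 7.54 and 8.47 with placebo. Of 44 cell cycle genes Cdkn1b fell, 36 had a lower mean with DHT and 0 rose (median -0.06). Of 27 genes of the unfolded protein and stress response, the chaperone Dnajb11 fell by 0.28 (adjusted p = 0.0952), with a median of -0.08, and of 17 clock genes 0 was called (median -0.06). Of the called genes named here, Mro, Cd4, Lipe, Col4a3, Ltbp2, Lgr6, Prkaca and Dnajb11 lost their call in each of the 6 fits on 5 arrays. Without the filter on low values, Oca2, Mro, Rab27a, Cd4, Lipe, Col4a3, Cxcl1, Lgr6, Zbtb16, Prkaca, Dnajb11 and Mvk were not called.

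The transcripts in this paragraph were picked after their values were seen, and most of them varied widely within a group. Cyp17a1, which makes androgens in theca and interstitial cells, stood at 9.29, 8.80 and 8.61 with DHT and at 4.74, 5.92 and 10.50 with placebo (adjusted p = 0.674). Its log2 fold change was 3.57 without placebo replicate 3 (adjusted p = 0.0654), the array with its highest value. With any other single array left out the change ran from 0.693 to 1.99 (adjusted p from 0.701 to 0.911). Placebo replicate 3 exceeded all DHT-treated arrays, and the other placebo-treated arrays lay below them. Hsd17b7, an enzyme of cholesterol and estradiol synthesis, stood at 7.21, 6.85 and 6.67 with DHT and at 7.27, 9.07 and 11.50 with placebo, where replicate 3 was again highest. Gpnmb, a glycoprotein of macrophages, stood at 7.86, 10.23 and 9.74 with DHT and at 7.11, 7.01 and 8.65 with placebo (adjusted p = 0.38). Lyz2, Ctss, Cd68, Clec7a and Atp6v0d2, genes of macrophages and lysosomes, showed the same order of arrays in that DHT replicates 2 and 3 were highest and placebo replicate 3 came next. The mean level of the whole macrophage list was 6.61, 7.50 and 7.31 with DHT and 6.65, 6.63 and 7.03 with placebo. Dnah5, a motor of motile cilia, stood at 3.52, 4.19 and 7.13 with DHT and at 3.74, 7.72 and 3.59 with placebo. It was high in DHT replicate 3 and placebo replicate 2 and not in DHT replicate 2, although Ovgp1 was high in all 3 of these arrays. The oviduct epithelium list, with 18 tested genes and 0 called (median 0.16), had a mean level of 5.78, 6.36 and 7.23 with DHT and of 5.71, 7.40 and 5.68 with placebo. The epithelial gene Krt8 followed it, with 8.40 and 8.65 in DHT replicate 3 and placebo replicate 2 and 7.11 to 7.59 elsewhere. The groups did not overlap for Sult1e1. This estrogen sulfotransferase stood at 6.05, 4.20 and 4.72 with DHT and at 2.40, 2.48 and 2.48 with placebo, and was not tested because 2 of its values passed the array median.

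**Figure D4:**
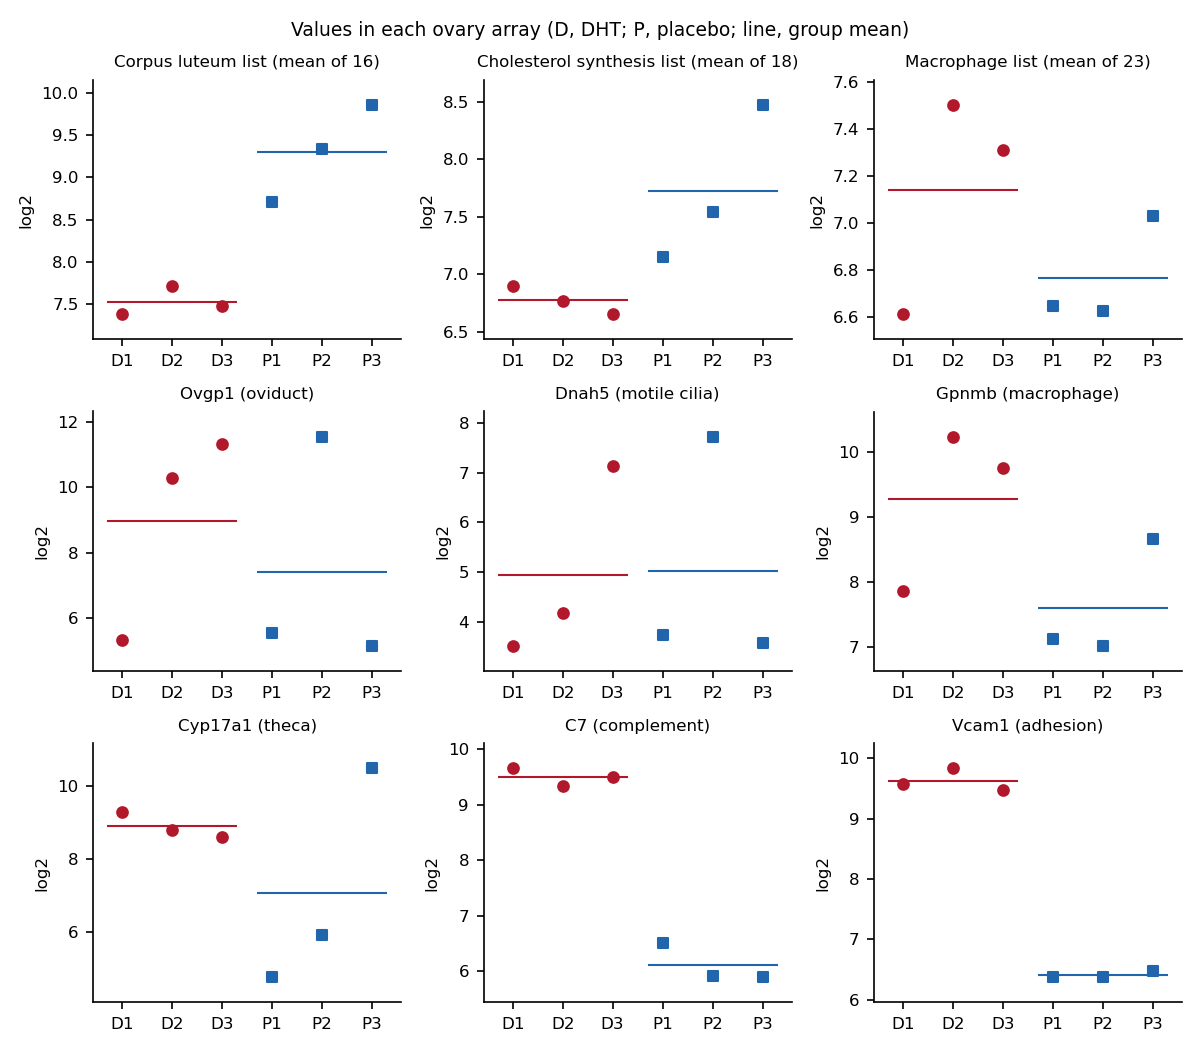
Log2 values in each of the 6 ovary arrays, with group means as lines, for mean levels of 3 gene lists and for 6 genes. The vertical axes differ between panels. C7 and Vcam1 separate the groups with little spread, Ovgp1 and Dnah5 are high in arrays of both groups, and Cyp17a1 is high in placebo replicate 3 (10.50) and in all DHT-treated arrays.

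The effect of DHT in the ovaries was set against that in gonadal fat, where 26501 of the 65929 clusters (40.2%) carried the values of another cluster and were paired with their names again by sorting. The difference of both effects was tested as an interaction over all 12 arrays, and 1109 of 18078 genes (6.13%) passed. The labels do not say whether ovary and fat of 1 replicate number came from the same mouse. Deviations of same-numbered arrays from their group means correlated weakly across genes, with an r of 0.111 to 0.192. For arrays of other numbers r ran from -0.181 to 0.0321. Deviations within a group sum to 0, so that these values are not independent. What links same-numbered arrays was not tested. With the replicate number as a block 2236 genes passed. Of the 59 called genes named here 48 could be tested and 31 passed (35 with the block). These genes were chosen by their change in the same ovary arrays, which favours a difference from fat. Their share is therefore not comparable with the 6.13% of all genes. In 25 of the 31 the change in fat was under 0.5 log2 units in either direction, and in Rgs16 it was larger than in the ovaries. Vcam1 had a change of 3.22 in the ovaries and of -0.34 in fat. Kit had one of 1.68 in the ovaries and of -1.17 in fat, and Fkbp5 of -1.20 in the ovaries and of 0.87 in fat. Rgs16 changed by -0.72 in the ovaries and by -2.97 in fat. For C7 the changes were 3.40 and 3.29 (interaction adjusted p = 0.904), for Col6a5 1.59 and 1.62 (0.949) and for Gsta3 1.28 and 1.01 (0.797), where a p that misses the threshold does not show that the effects are equal. The values of C7 and Fkbp5 in fat rest on clusters that were paired again, and those of Vcam1, Kit, Rgs16, Col6a5 and Gsta3 do not.

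**Figure D5:**
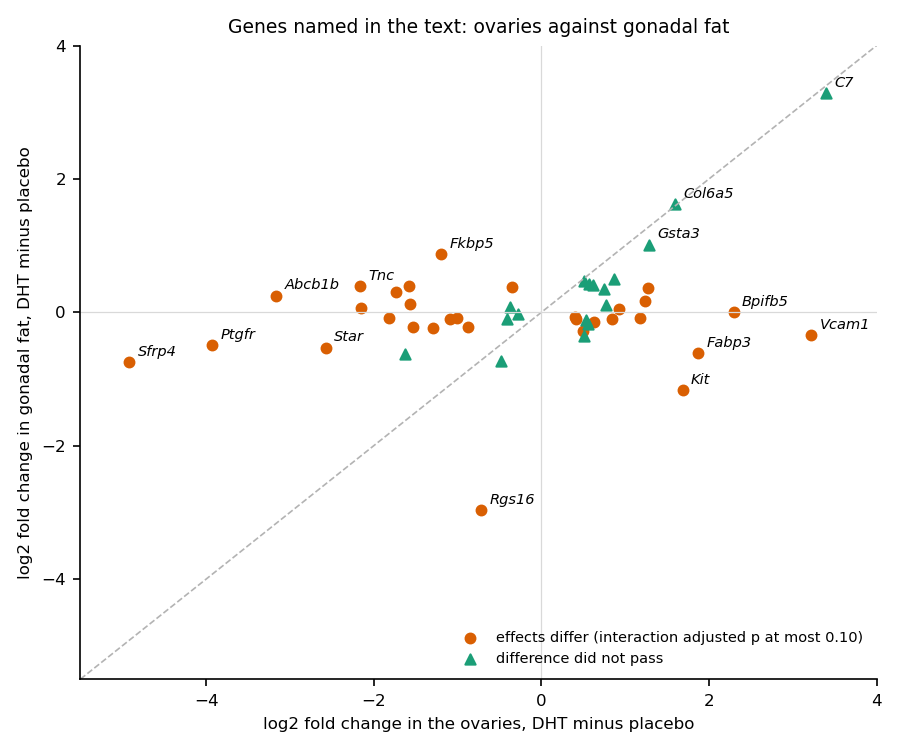
Log2 fold change (DHT minus placebo, 3 arrays each) in the ovaries and in gonadal fat for the 48 named genes tested in both tissues. Orange circles are the 31 genes whose effects differ at an interaction adjusted p of at most 0.10, green triangles the 17 others, and the dashed line marks equal effects. C7 and Col6a5 lie on that line, and most circles lie near 0 on the axis of gonadal fat.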

How the data were processed

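Whole ovaries and gonadal fat pads were measured on Affymetrix mouse transcriptome arrays, and each transcript cluster was deposited by the authors as 1 log2 value per array, already summarised. MAS5 is named in the submitters' processing notes. The normalization was not given in the sources used here. Arrays have no read depth, and 3 arrays per group limit the precision. Symbols came from the platform annotation. Left out were 2176 clusters with several symbols and 33115 without one. Where a gene had several clusters, that of the highest mean was used, and genes above the array median in at least 3 of 6 arrays were tested with limma 3.58.1 (lmFit and eBayes, R 4.3.3), with p-values adjusted after Benjamini and Hochberg over all of them. Tables and plots used Python 3.11.15. Scripts were tested on simulated data. A permutation of 3 against 3 arrays cannot give a two-sided p under 0.10. In gonadal fat, values of displaced clusters had an r across clusters with the ovary of 0.0139 as deposited and of 0.946 after sorting identifiers with the sign "_" before digits, against 0.943 elsewhere. Genes named are the 15 higher and 15 lower called genes with the largest change, without predicted or unnamed ones, up to 4 called members of each list, Ovgp1, Pax8 and Col6a5, and the 2 brightest members of cell type lists without a call. Other genes were named after their values were seen. Lists and members were chosen with earlier results of these data known. Alternatives were quantile normalization, median centring, other filters, the mean of clusters, an intensity trend, SAM, all 12 arrays, a replicate block, oviduct and adipocyte covariates, and arrays left out.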

Additional observations from a re-analysis of the deposited data

Results flagged for a closer look

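For 31 genes the effect of DHT in gonadal fat differed from that in the ovaries in a test of the difference itself, the interaction of limma's fit over 12 arrays. All 31 had been chosen by their calls in the same ovary arrays, which favours a difference and can enlarge it. The values here are log2 effects in gonadal fat less those in the ovaries. Among genes that rose in the ovaries the difference was -3.56 for Vcam1, -2.85 for Kit, -2.48 for Fabp3, -2.29 for Bpifb5, -1.26 for Ptgr1, -1.08 for Lifr, -0.94 for Cxcl1, -0.91 for Eya1, -0.87 for Chrdl1, -0.77 for Vwf and for Lgr6, -0.52 for Ltbp2 and -0.47 for Col4a3. Among genes that fell it was 4.17 for Sfrp4, 3.44 for Ptgfr, 3.41 for Abcb1b, 2.56 for Tnc, 2.22 for Tmem178, 2.07 for Fkbp5, 2.04 for Star and for Mrap, 1.97 for Ephx2, 1.73 for Wnt10b, 1.69 for Scd1, 1.31 for Rab27a, 1.06 for Mgst2, 1.0 for Cdkn1b, 0.92 for Timp1, 0.73 for Lipe and 0.66 for Wnt4. For Rgs16, which fell in the ovaries and further in gonadal fat, it was -2.25. Of these genes 9 rest on clusters whose gonadal fat values were paired again, and 22 named genes passed when undisplaced clusters alone were used. Groups of 3 arrays were too small for a test of single outlying arrays.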

How the results depend on the processing

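Counts below are of called genes, then of those that also changed at least 2-fold, then of called list members, against 241, 62 and 48. They were 436, 107 and 75 with all 12 arrays in 1 fit, 5, 5 and 3 without both oviduct-rich arrays, and 21, 21 and 10 with the adipocyte covariate. When 1 array was left out they ran from 25 to 197, from 14 to 92 and from 7 to 43. The SAM statistic gave 471 and 104, an adjusted p of at most 0.05 gave 87 and 36, and an unadjusted p of at most 0.01 gave 99 at 2-fold. With the mean of Ovgp1 and Pax8 as a covariate 408 genes were called. Chosen after seeing the data, the mean of the oviduct list as a covariate gave 491, and leaving out the 3 arrays with high Ovgp1 gave 0, 0 and 0 in limma, where 1535 genes had an unadjusted p of at most 0.05. Deviations of same-numbered ovary arrays from their group means had an r of 0.398, -0.121 and -0.506. The highest r, 0.788, was that of DHT replicate 3 with placebo replicate 2, both rich in oviduct transcripts. Deviations within a group sum to 0, so that these values cannot show whether replicate numbers pair the ovary arrays. With a replicate block 3, 3 and 3 were called (C7, Vcam1 and Wnt10b). Settings that leave out arrays have fewer samples. The cause of the other changes was not tested. Across the alternatives, which include the fit with 1 DHT-treated array, 727 of 1173 values of the named called genes still passed. The other 446 no longer passed. Of 357 values of the 17 uncalled genes that the naming rule gave, 0 passed. Genes named after their values were seen are not in this count, and of these Klk1b21 passed without both oviduct-rich arrays (adjusted p = 0.0818) and Cyp17a1 without placebo replicate 3 (0.0654). Placebo replicate 3 held the highest Cyp17a1 value, and Cyp17a1 did not pass with any other single array left out.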
